A study of Mus musculus with 6 samples.

Results

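The genes described here are 44 mouse genes of the Hox clusters and of the Meis and Pbx families, out of 46983 genes in the deposited counts. They were chosen by name: 10 genes of the HoxA cluster, 10 of HoxB, 9 of HoxC, 9 of HoxD, 3 Meis genes and 3 Pbx genes, each matched to its Ensembl identifier. RNA was sequenced from embryonic fibroblasts, cells of connective tissue that grow from minced embryos in a dish, of the strain C57BL/6. The embryos were 14 days old, the cells were at passage 16, and all were grown in DMEM with 10% fetal bovine serum, pyruvate, non-essential amino acids and antibiotics. Of 6 libraries, 3 were labelled wild type and 3 were labelled SphK2 null, meaning a loss of Sphk2, the gene of sphingosine kinase 2, which makes a lipid signal. The labels give no other allele or treatment, and they do not name the part of Sphk2 that the null allele lacks, the number of embryos, or a separate culture behind each library. P-values therefore measure how far these libraries spread, and that spread may be technical. In such bulk samples, fewer cells of a type and less RNA per cell cannot be told apart.

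Hox genes encode homeodomain transcription factors that give cells along the body axis and along the limbs their position. In each of the clusters the genes stand in the order in which they act, from the 3′ end, whose genes act toward the head, to the 5′ end, whose genes act toward the tail and the tips of the limbs. Genes of the same number in different clusters are paralogues and share descent and much of their function. Fibroblasts of adult skin and other organs are known to keep a Hox pattern that tells where in the body they came from. Meis and Pbx proteins are homeodomain proteins of another class, called TALE, that bind DNA beside Hox proteins and sharpen their choice of sites.

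Total counts per library ran from 15598566 to 23681718, and 3 counts corresponded to 0.127 to 0.192 CPM (counts scaled to library size and composition). Sphk2 itself went against the label, with 28.1, 27.4 and 26.3 CPM in wild-type-labelled and 49.4, 51.6 and 49.1 CPM in null-labelled libraries. Directions below are therefore between labels, as "null-labelled" and "wild-type-labelled". All 14 fibroblast markers were lower in the null-labelled libraries, and their summed level was 16846 to 17349 CPM against 3871 to 3922 CPM. Thy1, a surface antigen of fibroblasts, had 256 counts against 0, while Vim, the filament protein vimentin, stood at 5622 and 3211 CPM. Vim thus made up most of the null-labelled sum. The median log2 fold change of the 14 was -5.93, or -5.34 with Thy1 set against 3 counts. The 10 epithelial markers summed to 109 to 115 against 384 to 411 CPM, nearly all of it the keratin Krt8. Of the 3 tested Krt8 was higher and 2 were lower, Krt18 (69 against 16 counts) and Ocln (223 against 45 counts), with the defining genes Epcam at 0.153 and 0.115 CPM and Cdh1 at 0.380 and 0.379 CPM. The 10 trophoblast and extraembryonic endoderm markers summed to 4.97 to 5.21 against 23.9 to 24.5 CPM, with Cdx2 and Sox17 at 0 in all libraries. Of the 5 tested, 2 were higher, Hand1 (8 against 1111 counts) and Gata4 (3 against 112 counts), and 3 were lower. The 8 endothelial markers summed to 2.02 to 2.77 against 3.89 to 4.96 CPM with Emcn at 0, and the 8 blood cell markers to 3.79 to 3.98 against 3.52 to 4.25 CPM with Cd3e at 0. Of 3 endothelial markers tested, 1 was lower and 2 were higher, and of 2 blood cell markers tested, 1 was lower and 1 higher. The 8 neural markers summed to 427 to 435 against 439 to 463 CPM, mostly Nes at 301 and 434 CPM, while Sox2 had 6454 against 5 counts and Map2 235 against 1. The part of these markers in the Hox differences was not tested.

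HoxA transcripts were far fewer in the null-labelled libraries, where Hoxa10 made up most of what was left, while the tested genes of HoxB and HoxC and the middle genes of HoxD mostly differed by less than 2-fold. Of the 44 genes, 30 had enough counts to be tested, and with the null label 17 were lower, 6 higher and 7 not past an adjusted p of 0.05. Across all 15199 tested genes, 79.2% passed that threshold, 41.1% lower and 38.1% higher, so a call by itself sets no gene apart here. The groups did not overlap for 24 of the 30, against 79.9% of all tested genes. The null-labelled libraries were the lower ones, without overlap, for 18 of the 30, against 41.4% of all tested genes. These 18 include 7 HoxA and 2 HoxD genes that passed the filter on low counts through the wild-type-labelled libraries alone. The median log2 fold change was -0.34 over the 30 genes, also with 2 genes without a count in the null-labelled libraries set to their bound, and -0.02 over all tested genes. The clusters differed from each other in size of change. HoxA had 9 tested genes, 9 lower and 0 higher. HoxB had 4 tested genes with 1 lower and 2 higher, HoxC had 5 with 0 lower and 1 higher, and HoxD had 6 with 4 lower and 1 higher. The 14 genes not tested were Hoxa2, Hoxb1, Hoxb2, Hoxb7, Hoxb8, Hoxb9, Hoxb13, Hoxc8, Hoxc11, Hoxc12, Hoxc13, Hoxd3, Hoxd12 and Hoxd13, none above 12 counts or 0.701 CPM in a library.

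**Figure D1:**
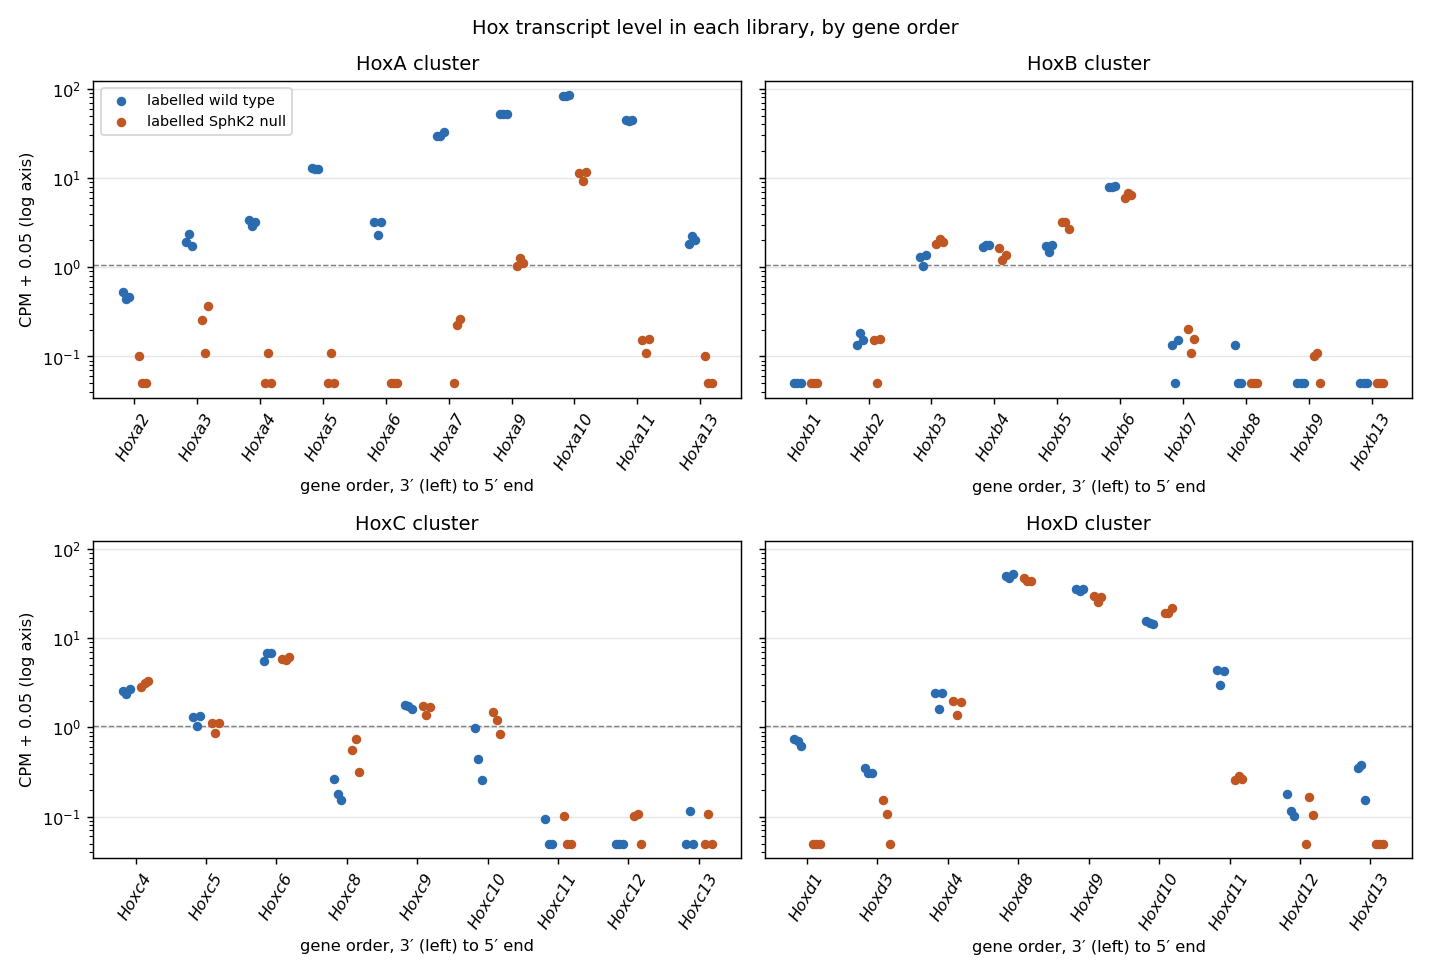
Level of each Hox gene in each of the 6 libraries, as CPM plus a display offset of 0.05 on a log axis, by gene order from the 3′ to the 5′ end of each cluster. Blue points are the 3 wild-type-labelled and orange points the 3 null-labelled libraries, the dashed line marks 1 CPM, and among the HoxA genes only Hoxa9 and Hoxa10 had a null-labelled mean of at least that level.

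Sequences before a start site of 4 genes are shown because these genes form a pair of neighbours in HoxA and a pair in HoxD whose members differed in how much transcript the null-labelled libraries held. Each is the 250 bases before a RefSeq transcription start (GRCm38.p6), written 5′ to 3′ on the strand of the gene, with each CG dinucleotide, the site of DNA methylation, in capitals. Hoxa10 lies at chr6:52234940-52235189 and Hoxa11 at chr6:52245811-52246060, both on the minus strand. Hoxd10 lies at chr2:74691641-74691890 and Hoxd11 at chr2:74682073-74682322, both on the plus strand. For Hoxa10 and Hoxd11 the start shown lies inside the gene, and each has another RefSeq start at its 5′ end that is not shown.
Hoxa10: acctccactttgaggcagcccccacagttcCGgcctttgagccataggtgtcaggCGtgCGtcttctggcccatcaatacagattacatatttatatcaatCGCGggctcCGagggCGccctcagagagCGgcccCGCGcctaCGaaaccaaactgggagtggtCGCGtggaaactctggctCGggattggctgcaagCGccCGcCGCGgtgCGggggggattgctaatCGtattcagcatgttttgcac
Hoxa11: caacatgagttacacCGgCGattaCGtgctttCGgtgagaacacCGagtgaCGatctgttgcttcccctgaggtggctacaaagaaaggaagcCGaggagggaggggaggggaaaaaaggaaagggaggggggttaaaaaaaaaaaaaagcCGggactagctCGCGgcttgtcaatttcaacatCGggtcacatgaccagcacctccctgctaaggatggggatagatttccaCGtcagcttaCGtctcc
Hoxd10: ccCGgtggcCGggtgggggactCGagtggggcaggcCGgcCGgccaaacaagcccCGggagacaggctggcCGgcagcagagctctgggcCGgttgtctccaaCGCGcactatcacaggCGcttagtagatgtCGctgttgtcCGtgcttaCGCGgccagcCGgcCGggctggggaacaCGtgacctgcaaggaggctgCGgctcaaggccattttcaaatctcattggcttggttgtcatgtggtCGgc
Hoxd11: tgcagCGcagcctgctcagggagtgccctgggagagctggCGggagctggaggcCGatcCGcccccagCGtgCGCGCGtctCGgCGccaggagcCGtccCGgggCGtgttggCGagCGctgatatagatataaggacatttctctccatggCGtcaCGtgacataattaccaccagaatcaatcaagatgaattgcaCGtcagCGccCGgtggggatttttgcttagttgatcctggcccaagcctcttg
The windows hold 20 CG dinucleotides for Hoxa10, 13 for Hoxa11, 20 for Hoxd10 and 20 for Hoxd11. All 4 are CG-dense, with over 50% G and C and a ratio of observed to expected CG above 0.6, as are 30.8% of the 32851 RefSeq promoters of the genome. The windows at the 5′ ends of Hoxa10 and Hoxd11, which are not shown, hold 7 and 2 CG dinucleotides and are not CG-dense. In the Hoxa11 window, 98 bases lie in exons of Hoxa11os or Gm28032, noncoding transcripts that run the other way.

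Among the HoxA genes the promoters of 9 were in the table, with 10 start sites, a median of 15.5 CG dinucleotides against 6 over all promoters, and 6 CG-dense windows. The 9 HoxD genes, with 10 start sites, had a median of 12.5 and 4 CG-dense windows. The letters TGATNNAT, the form of site at which Pbx and Hox proteins can bind side by side, were searched on both strands. They occurred in 4 of 29 windows of the 27 genes matched, and in 7.68% of all promoters. Of the 4 windows printed, Hoxd11's held them. A match of letters is a description and not a binding site.

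The HoxA cluster spans 98.5 kb of chromosome 6, from 52162417 to 52260880 (mm10) between the outermost genes described, with all of them on the minus strand. Its 9 tested genes were all lower by over 2-fold in the null-labelled libraries, where 15.8% of all tested genes were, and 7 were lower by over 32-fold in the fitted value, where 6.15% were. Their median log2 fold change was -7.01, or -6.31 with the gene without counts at its bound. Of these genes 7 passed the filter on low counts through the wild-type-labelled libraries alone. Among the 1488 genes of any kind that passed so, 93.1% were called lower, 89.9% by over 2-fold, and 865 were lower by over 32-fold. The count of these 7 is thus no result about HoxA, and neither is the count of 6 among them that were over 32-fold lower. Hoxa9 and Hoxa10 passed it in both groups, and among the 12567 genes that did, 8.44% were lower by over 2-fold.

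At the 3′ end, Hoxa2, which patterns the second pharyngeal arch, was not tested. Its counts were 11, 6 and 8 in wild-type-labelled against 1, 0 and 0 in null-labelled libraries, a 24.0-fold ratio (95% exact binomial interval of counting error, 3.94 to 987). Such intervals cover counting error only. The bounds below, set against 3 counts, take the wild-type-labelled counts as free of error. Hoxa3, needed for the thymus and parathyroid, stood at 1.89, 2.30 and 1.68 CPM in wild-type-labelled and 0.205, 0.0584 and 0.320 CPM in null-labelled libraries. The groups did not overlap, and on the log2 scale the difference was -3.24 ± 0.36 (SE, adjusted p = 2.91e-19). Of its exonic bases, 27.1% are shared with other transcripts, and reads over such bases were left out of the counts.

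Hoxa4, a gene of the neck region, stood at 3.36, 2.89 and 3.19 CPM in the wild-type-labelled libraries and had a single count in the null-labelled ones. The ratio was 176, with a counting interval of 31.2 to 6991. Hoxa5, known for its role in the lung and in the vertebrae between neck and chest, stood at 12.8, 12.5 and 12.7 CPM against a single count in the 3 null-labelled libraries together. Its ratio of 701 had a counting interval of 125 to 27737. Hoxa6, its neighbour, stood at 3.14, 2.23 and 3.19 CPM against 0 counts in each null-labelled library. Set against 3 counts over the 3 libraries, it was 53.9-fold lower. Hoxa7, which acts in the trunk, stood at 29.3, 29.8 and 32.9 CPM against 0, 0.175 and 0.213 CPM (log2 fold change -7.85 ± 0.18 SE, and -7.25 or -8.43 without null-labelled replicate 1 or 3). Hoxa4 to Hoxa7 thus had wild-type-labelled levels that differed several-fold from gene to gene, and all were at or below 4 counts in every null-labelled library.

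Hoxa9 and Hoxa10 were the HoxA genes with most transcript in the null-labelled libraries. Hoxa9, which with Meis1 is known from blood stem cells and leukaemia, stood at 52.3, 51.9 and 51.8 CPM against 0.973, 1.23 and 1.07 CPM. Its log2 fold change was -5.58 ± 0.10 (SE). Hoxa10 (ENSMUSG00000000938), known for its role in the uterus, stood at 83.1, 83.7 and 84.2 CPM against 11.3, 9.11 and 11.7 CPM. The log2 fold change was -2.96 ± 0.056 (SE), a 7.79-fold lower level. Beside it, 1.251 kb further 5′, Hoxa11 (ENSMUSG00000038210), a gene of the forearm and the uterus, stood at 45.0, 43.4 and 44.4 CPM against 0.102, 0.0584 and 0.107 CPM. Its log2 fold change was -8.84 ± 0.16 (SE), so that the transcript nearest to Hoxa10 on its 5′ side was among those with the largest differences of the cluster. Of the exonic bases of Hoxa11, 35.0% also belong to Hoxa11os, its antisense partner, and counting did not use strand. Reads over these shared bases could therefore not be assigned by strand and were left out of the counts. At the 5′ end, Hoxa13, a gene of the digits and the genital tubercle, stood at 1.76, 2.17 and 1.99 CPM against a single count, a ratio of 108 (interval 18.9 to 4293). For each HoxA gene of this and the preceding paragraph the adjusted p was at most 1.68e-29.

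**Figure D2:**
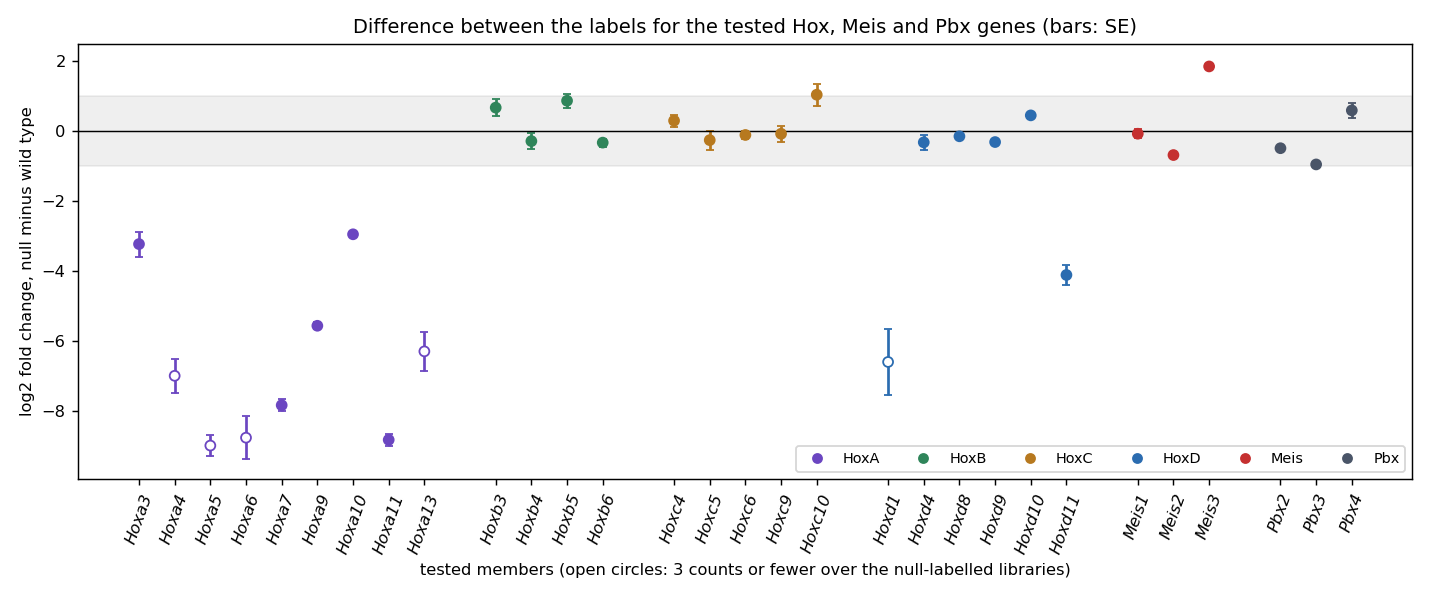
Log2 fold change (null-labelled minus wild-type-labelled) of the 30 tested genes by family, with bars for 1 SE, open circles for genes with 3 counts or fewer over the null-labelled libraries, whose fitted value is no bound, and grey shading for changes within 2-fold. The 9 HoxA genes, Hoxd1 and Hoxd11 lie below the shaded band, and Meis3 and, at its upper edge, Hoxc10 lie above it.

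In HoxB, HoxC and HoxD, 12 genes passed the filter in both groups, and all 12 changed by less than 2-fold, as did 84.0% of the 12567 such genes overall. Of these 12, 3 were lower and 3 higher, where 38.6% and 40.3% of such genes were. The other 3 tested genes of these clusters, Hoxc10, Hoxd1 and Hoxd11, passed it in 1 group and differed by over 2-fold.

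HoxB lies on the plus strand of chromosome 11 (96194316 to 96368256). Its transcripts came from Hoxb3 to Hoxb6 in both groups. Hoxb3 stood at 1.25, 0.984 and 1.31 CPM in wild-type-labelled and 1.79, 2.04 and 1.87 CPM in null-labelled libraries, without overlap (log2 fold change 0.66 ± 0.24 SE, adjusted p = 0.00714). With DESeq2 its adjusted p was 0.0548, and 52.9% of its exonic bases are shared with its antisense partner Hoxb3os. Hoxb4, known for expanding blood stem cells, stood at 1.63, 1.71 and 1.73 against 1.59, 1.17 and 1.33 CPM (adjusted p = 0.24). Hoxb5, a gene of the neck and shoulder region, stood at 1.68, 1.44 and 1.73 against 3.13, 3.15 and 2.61 CPM, higher in all null-labelled libraries. Its log2 fold change was 0.86 ± 0.20 (SE), with an adjusted p = 2.64e-05. Hoxb6, the HoxB gene with the highest level per length, stood at 7.87, 7.87 and 8.11 against 5.89, 6.66 and 6.34 CPM (log2 fold change -0.34 ± 0.11 SE, adjusted p = 0.00342). The remaining HoxB genes, at the head end (Hoxb1, Hoxb2) and at the tail end (Hoxb7, Hoxb8, Hoxb9, Hoxb13), had at most 3 counts in any library.

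HoxC lies on the plus strand of chromosome 15 (102921103 to 103036852), and 1 of its 5 tested genes changed. Hoxc4 stood at 2.54, 2.30 and 2.62 CPM against 2.82, 3.10 and 3.25 CPM, apart in level but not past the threshold (adjusted p = 0.125). Hoxc5 stood at 1.25, 0.984 and 1.31 against 1.08, 0.818 and 1.07 CPM (adjusted p = 0.368). Hoxc6, a gene of the chest region with the highest level per length in this cluster, stood at 5.51, 6.82 and 6.86 against 5.74, 5.61 and 6.08 CPM (adjusted p = 0.354). The groups overlapped in both. Hoxc9, which also acts in the chest region, stood at 1.72, 1.71 and 1.57 against 1.69, 1.34 and 1.65 CPM (adjusted p = 0.735).

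Hoxc10, a gene of the lumbar region and the hindlimb, stood at 0.946, 0.394 and 0.209 CPM against 1.43, 1.17 and 0.800 CPM. The groups overlapped, with 22 counts in the highest and 4 in the lowest wild-type-labelled library. On the log2 scale the difference was 1.03 ± 0.32 (SE, adjusted p = 0.00161), and without wild-type-labelled replicate 3 it was 0.64 with an adjusted p = 0.0756, and without replicate 1 it was 1.93 with an adjusted p = 3.6e-05. Hoxc10 passed the filter through the null-labelled libraries alone, and of the 933 genes of any kind that did, 78.6% were called higher. Hoxc8, a gene of the chest region, had 5, 2 and 2 counts against 10, 12 and 5 counts and was not tested. Hoxc11, Hoxc12 and Hoxc13, the genes at the tail end, had at most 1 count in any library.

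HoxD lies on the plus strand of chromosome 2 (74668310 to 74765142). Its middle genes changed by less than 2-fold, and the genes at both ends had few or no counts in the null-labelled libraries. Of these end genes, Hoxd3, Hoxd12 and Hoxd13 had at most 7 counts in any library of either label and were not tested. Hoxd8 was the Hox gene with the highest level per length in the null-labelled libraries. It stood at 49.99, 47.1 and 52.0 CPM against 46.7, 43.2 and 43.8 CPM, slightly lower without overlap (log2 fold change -0.16 ± 0.046 SE, adjusted p = 0.000886). Hoxd9, a gene of trunk and limb, stood at 35.3, 34.1 and 36.0 against 29.7, 25.7 and 28.7 CPM (log2 fold change -0.32 ± 0.055 SE, adjusted p = 7.75e-09). Hoxd10, which patterns limb and lumbar nerves, went the other way, at 15.4, 14.8 and 14.4 against 19.3, 19.3 and 22.0 CPM. Its log2 fold change was 0.44 ± 0.072 (SE), with an adjusted p = 1.9e-09.

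Hoxd11 (ENSMUSG00000042499), the next gene toward the 5′ end at a distance of 4.907 kb and a partner of Hoxa11 in the forearm, stood at 4.30, 2.95 and 4.19 CPM against 0.205, 0.234 and 0.213 CPM. It was 17.4-fold lower, or -4.12 ± 0.30 on the log2 scale (SE, adjusted p = 1.15e-43). Hoxd10 and Hoxd11, whose upstream windows are printed above, thus lay next to each other with differences of opposite sign. Hoxd12 had 3, 1 and 1 counts against 0, 2 and 1. Hoxd13, a gene of the digits, had 7, 5 and 2 counts against 0 in each null-labelled library, 4.49-fold lower when set against 3 counts.

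Toward the 3′ end of HoxD, Hoxd4 stood at 2.41, 1.57 and 2.41 CPM against 1.95, 1.34 and 1.87 CPM, with overlap. Its adjusted p was 0.138, and 0.0434 without wild-type-labelled replicate 2, where the log2 fold change went from -0.33 to -0.48. Hoxd3 and Hoxd4 share exons, 62.8% and 52.3% of their bases with these and other transcripts, and reads over such bases were left out of the counts. Hoxd3 had 7, 4 and 5 counts against 2, 1 and 0, a ratio of 5.13 (interval 1.47 to 27.5). Hoxd1, the gene at the head end, had 16, 10 and 11 counts against 0 in each null-labelled library, at least 11.9-fold lower (adjusted p = 5.88e-12). Hoxd1 and Hoxd11 passed the filter through the wild-type-labelled libraries alone.

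Each group's positional code was read as the genes of each cluster whose mean reached 1 CPM. In the wild-type-labelled libraries this gave 9 HoxA genes, from Hoxa3 to Hoxa13, and in the null-labelled libraries 2, Hoxa9 and Hoxa10. Hoxa9 only just reached that level, with a null-labelled mean of 1.09 CPM and 0.973 CPM in null-labelled replicate 1. HoxB gave Hoxb3 to Hoxb6 in both groups. HoxC gave Hoxc4, Hoxc5, Hoxc6 and Hoxc9 in wild-type-labelled and Hoxc4, Hoxc6, Hoxc9 and Hoxc10 in null-labelled libraries. These HoxC sets depend on the level asked for, since the group means of Hoxc5 (1.18 and 0.987 CPM) and Hoxc10 (0.516 and 1.13 CPM) lay on either side of it. HoxD gave Hoxd4 and Hoxd8 to Hoxd11 in wild-type-labelled libraries and the same without Hoxd11 in null-labelled ones. The gene with the highest level per length (RPKM, CPM per kilobase of exon) was Hoxa10, Hoxb6, Hoxc6 and Hoxd8 in the clusters of both groups. With exonic bases that no other gene shares as the length, Hoxa11 took the place of Hoxa10 in the wild-type-labelled libraries, at 29.8 against 25.6 RPKM.

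Ordered by level per length, the wild-type-labelled libraries were led by Hoxa10 at 25.6 ± 0.18 RPKM (SD, n = 3). Hoxa11 (19.4 RPKM), Hoxd8 (18.1 RPKM), Hoxd9 (16.4 RPKM), Hoxa7 (10.7 RPKM), Hoxa9 (9.32 RPKM), Hoxd10 (8.18 RPKM) and Hoxa5 (6.73 RPKM) followed, and no neighbours in this order overlapped in their range over libraries. In the null-labelled libraries the order was led by Hoxd8 at 16.2 ± 0.68 RPKM (SD, n = 3). Hoxd9 (13.1 RPKM) and Hoxd10 (11.1 RPKM) came next and overlapped in range. Hoxa10 (3.27 RPKM) and Hoxb6 (3.21 RPKM) overlapped too, followed by Hoxc6 (2.41 RPKM). The HoxA genes thus took 5 of the first 8 places in the wild-type-labelled order, and in the null-labelled order Hoxa10 came after 3 HoxD genes.

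Summed per length over its genes, HoxA stood at 78.2 ± 1.48 RPKM in wild-type-labelled and 3.62 ± 0.40 RPKM in null-labelled libraries (SD, n = 3), a 21.6-fold difference. HoxB stood at 5.65 ± 0.19 against 5.35 ± 0.15 RPKM, HoxC at 5.03 ± 0.052 against 5.38 ± 0.13 RPKM and HoxD at 44.9 ± 1.603 against 41.2 ± 1.87 RPKM (SD, n = 3). The sum over the 38 Hox genes was 134 ± 3.24 against 55.5 ± 2.19 RPKM (SD, n = 3), 2.41-fold lower with the null label. As a share of that sum, HoxA went from 58.5% ± 0.36 to 6.51% ± 0.48 (SD, n = 3), with 58.2, 58.9 and 58.3% against 6.60, 5.98 and 6.94% in the libraries. HoxD took 33.5% ± 0.43 and 74.1% ± 0.45 (SD, n = 3), HoxB 4.22% and 9.66%, and HoxC 3.76% and 9.70%. The paralogues numbered 9 to 13, at the tail end of each cluster, took 61.0% and 52.4%, a difference of -8.61 percentage points that was -17.7 without the division by length. For each of these 5 shares the groups did not overlap, and the two-sided exact permutation test over 20 splits gave p = 0.1, the smallest it can give with 3 against 3, and 0.1 after adjustment over the 5.

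**Figure D3:**
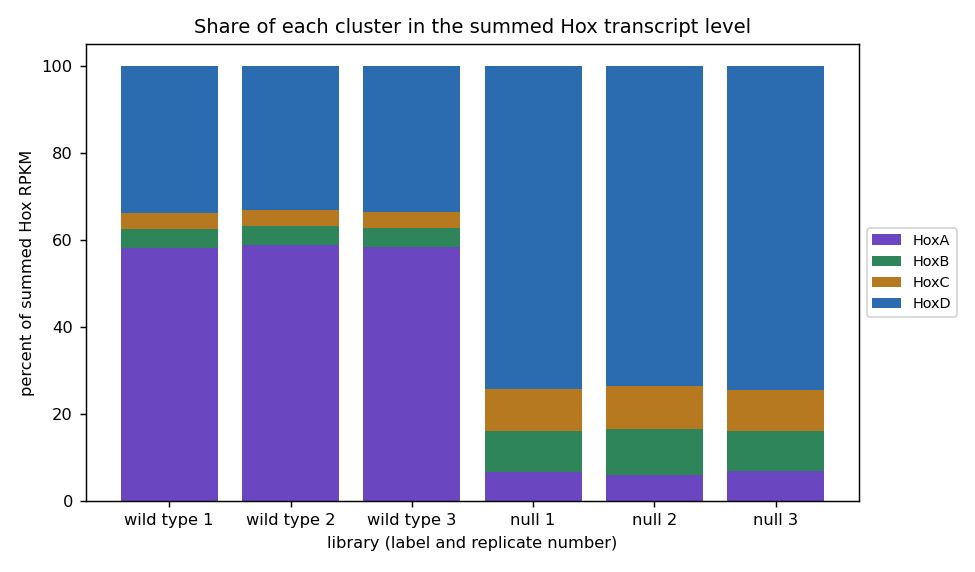
Share of each Hox cluster in the summed Hox level of a library (percent of summed RPKM), 1 bar per library, 3 wild-type-labelled on the left and 3 null-labelled on the right. HoxA fills 58.2 to 58.9% of the wild-type-labelled bars and 5.98 to 6.94% of the null-labelled bars, where HoxD fills 73.6 to 74.5%.

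Because paralogues can act in place of each other, the levels were also summed over the clusters by paralogue number. Numbers 7, 11 and 13, mostly HoxA in the wild-type-labelled libraries, had little left with the null label. Number 7 went from 10.7 ± 0.71 to 0.114 ± 0.025 RPKM, number 11 from 20.3 ± 0.55 to 0.099 ± 0.019 RPKM and number 13 from 0.905 ± 0.11 to 0.0148 ± 0.013 RPKM (SD, n = 3). Number 8, which has no HoxA gene and was mostly Hoxd8, stood at 18.2 ± 0.89 and 16.4 ± 0.68 RPKM. Number 9 stood at 26.4 ± 0.43 and 14.0 ± 1.02 RPKM and number 10 at 34.0 ± 0.31 and 15.0 ± 1.03 RPKM (SD, n = 3), with Hoxa10 as the largest part of number 10 in wild-type-labelled libraries and Hoxd9 and Hoxd10 as the largest parts in null-labelled ones. Number 5, mostly Hoxa5 in wild-type-labelled libraries, went from 7.69 ± 0.19 to 1.39 ± 0.098 RPKM and number 6 from 9.97 ± 0.62 to 5.62 ± 0.20 RPKM (SD, n = 3). These sums carry no test of their own.

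The other genes in and around the clusters were counted by position. Between the outermost listed genes of the 4 clusters lay 42 other genes, mostly noncoding. Of these, 8 were tested, 5 lower and 1 higher with the null label, against 41.1% and 38.1% of all tested genes. Inside HoxA 3 of 16 other genes were tested, and 3 were lower. Their null-labelled means were 0 to 0.035 CPM, so they passed the filter through the wild-type-labelled libraries alone. Among genes of any kind that passed so, 93.1% were called lower, so this count is no result about HoxA. A lower gene inside HoxD also had few null-labelled counts, at 1.06 against 0.178 CPM. Hoxa11os, the antisense RNA of Hoxa11, had 158, 110 and 144 counts against 1, 0 and 1, a ratio of 198 (interval 54.5 to 1642). Inside HoxB, Gm11539 was higher (log2 fold change 0.60 ± 0.089 SE), and inside HoxD, Hoxd3os1 was lower (-0.69 ± 0.16 SE).

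Within 500 kb on either side of the clusters lay 124 genes, of which 47 were tested, 21 lower and 16 higher (median log2 fold change -0.08). Over all tested genes 41.1% were lower and 38.1% higher, so these pooled counts do not set the surroundings of the clusters together apart. Beside HoxA 5 were tested, and 2 of them, within 4.1 kb of its 3′ end, were lower by over 2-fold. The 3 farther ones were higher in the null-labelled libraries. These were Skap2, an adaptor protein, with 0.45 ± 0.042 (SE), Hibadh, an enzyme of valine breakdown, with 0.20 ± 0.039 (SE), and Tax1bp1, an autophagy receptor, with 0.72 ± 0.023 (SE). Within 1000 kb of HoxA, 9 were tested, 3 lower and 5 higher. Beside HoxB, Igf2bp1, an RNA-binding protein of embryonic tissue, was lower (-1.32 ± 0.13 SE), and Zfp652 (0.55 ± 0.046 SE) and Snx11 (0.35 ± 0.083 SE) were higher. Beside HoxC, 14 of 22 tested genes were lower and 5 higher, to be read beside 41.1% and 38.1% of all tested genes. Within 1000 kb of HoxC, 39 were tested, 28 lower and 7 higher. Map3k12, a kinase of axon injury, was lower (-1.90 ± 0.083 SE), as was Itga5, the integrin chain that binds fibronectin (-0.98 ± 0.027 SE), and Zfp385a was higher (0.97 ± 0.040 SE). Beside HoxD, Mrpl23-ps1 (0.88 ± 0.105 SE) and Lnpk (0.34 ± 0.043 SE) were higher and Mtx2 lower (-0.16 ± 0.035 SE). In this paragraph the largest adjusted p of a named gene was 3.4e-05.

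**Figure D4:**
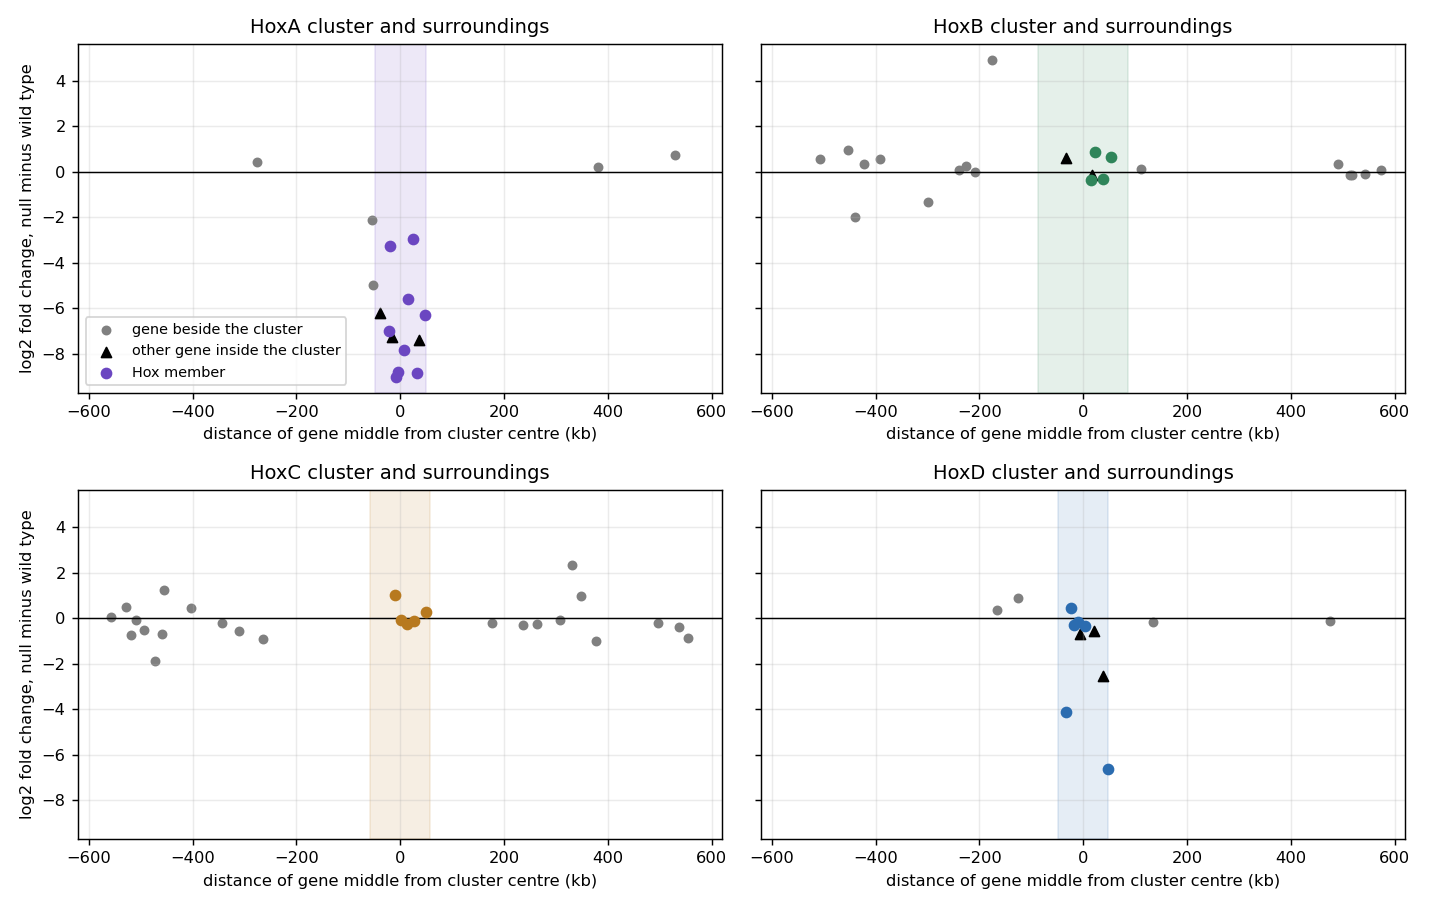
Log2 fold change (null-labelled minus wild-type-labelled) of tested genes by distance of the gene's middle from the cluster's centre in kb, 1 panel per cluster. Shading is the span of the listed Hox genes (coloured points), black triangles are other genes inside it and grey points genes within 500 kb, and in the HoxA panel the points far below 0 lie inside the span or at its left edge.

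Of the cofactors, Meis3 rose and Meis2, Pbx2 and Pbx3 fell, all without overlap of the groups. Meis proteins bind Pbx and hold it in the nucleus. Meis1, a marker of the part of the limb nearest the trunk, stood at 6.07, 5.97 and 5.76 CPM against 5.17, 5.78 and 5.86 CPM (adjusted p = 0.53). Meis2, a close relative of Meis1 in the limb and the face, stood at 46.2, 45.9 and 48.1 against 27.7, 29.9 and 29.2 CPM, a log2 difference of -0.69 ± 0.051 (SE, adjusted p = 4.56e-41). Meis3, known from the hindbrain and at 16175090 to 16186504 on the plus strand of chromosome 7, stood at 6.71, 8.46 and 8.90 against 28.1, 27.2 and 29.6 CPM. Null-labelled libraries held 3.58-fold more of it (log2 difference 1.84 ± 0.077 SE, adjusted p = 3.9e-125), where 10.4% of all tested genes were higher by over 2-fold. The summed level of the 3 Meis genes was 6.97 ± 0.41 against 11.9 ± 0.40 RPKM (SD, n = 3). Without the division by length it was 60.7 ± 1.88 against 62.8 ± 1.85 CPM (SD, n = 3), with 3173 exonic bases in Meis3 and 12043 in Meis2. Within the RPKM sum, Meis3 made up 36.2% in wild-type-labelled and 75.2% in null-labelled libraries, and Meis2 55.7% and 20.3%, so the leading Meis transcript per length was a different one.

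Pbx proteins bind DNA together with Hox proteins of the head-end and middle paralogues. Pbx2, which is expressed widely, stood at 73.1, 69.0 and 70.3 CPM against 48.8, 51.05 and 50.8 CPM (log2 fold change -0.50 ± 0.043 SE, adjusted p = 3.35e-31). Pbx3, needed for the brainstem's control of breathing, stood at 43.4, 41.9 and 43.5 against 21.4, 22.5 and 22.2 CPM. Its log2 fold change was -0.96 ± 0.056 (SE), with an adjusted p = 1.85e-66. Pbx4, known from the testis, stood at 1.55, 1.57 and 0.995 against 2.20, 1.93 and 2.03 CPM, a log2 difference of 0.58 ± 0.23 (SE, adjusted p = 0.0129). That adjusted p was 0.142 without wild-type-labelled replicate 3, 0.0543 without null-labelled replicate 1 and 0.0866 with DESeq2. The summed level of these 3 Pbx genes went from 27.1 ± 0.72 to 18.3 ± 0.37 RPKM (SD, n = 3), and Pbx2 was the largest part in both groups, at 71.8% and 75.2%.

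**Figure D5:**
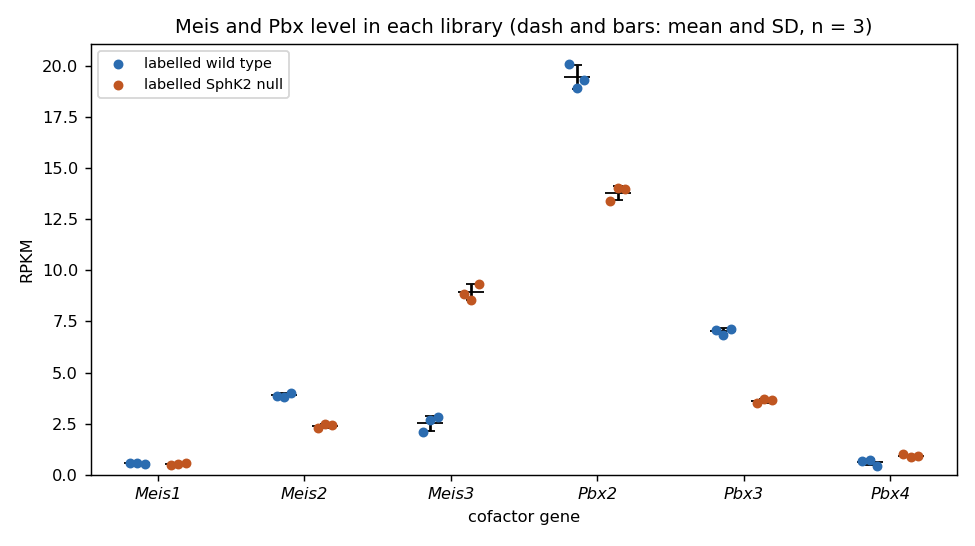
Level of the Meis and Pbx genes in each library (RPKM), with points for libraries and a dash with bars for the mean and SD of 3. Meis3 lies higher and Meis2, Pbx2 and Pbx3 lower in the null-labelled (orange) than in the wild-type-labelled (blue) libraries.

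The other proteins of this system were counted in lists, to be read beside 41.1% lower and 38.1% higher over all tested genes. Of 4 tested TALE proteins and Pbx partners, 2 were lower and 1 higher (median log2 fold change 0.02). Pbxip1, which binds Pbx and hinders it from binding DNA with Hox proteins, was lower at 30.9 ± 0.41 against 7.75 ± 0.53 CPM (SD, n = 3), or -2.00 ± 0.076 on the log2 scale (SE). Pknox1, a relative of Meis that also binds Pbx, was higher (0.45 ± 0.045 SE), and Tgif1, a repressor of the same class, was lower (-0.27 ± 0.040 SE). Of 8 tested regulators known to switch on Hox clusters along the axis, 6 were lower and 2 higher (median -1.53), and 3 of the 6 passed the filter through the wild-type-labelled libraries alone. The higher ones were Rxrb (0.56 ± 0.037 SE) and Rxra (0.15 ± 0.034 SE), partners of the retinoic acid receptors. Rarg, a retinoic acid receptor, stood at 280.2 ± 2.93 against 58.2 ± 1.52 CPM (SD, n = 3), or -2.27 ± 0.032 on the log2 scale (SE). Gdf11, a secreted signal of the tail region, had -1.37 ± 0.076 (SE), and Rara, another retinoic acid receptor, had -0.73 ± 0.046 (SE).

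The trithorax and Polycomb proteins, which keep Hox genes active and silent, were expressed in both groups. Of 14 tested trithorax and MLL complex genes, 4 were lower and 8 higher (median 0.17). Ash2l, a shared subunit of the methylating complexes, had a log2 fold change of 1.19 ± 0.025 (SE), the acetyltransferase Kat6a 0.94 ± 0.029 (SE), and Kmt2a, the methyltransferase MLL1, 0.80 ± 0.045 (SE). Of 24 tested genes of Polycomb, its opposing demethylases and the boundary factor Ctcf, 9 were lower and 12 higher (median 0.10). Kdm6a, which removes the Polycomb methyl mark, had -1.73 ± 0.047 (SE), and Cbx6, which belongs to the complex that reads it, had -1.46 ± 0.029 (SE). Against the shares of 41.1% lower and 38.1% higher over all tested genes, these counts set neither list apart.

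Other transcription factors of position in limb, trunk and head were also counted. Of 9 tested limb and trunk factors, 7 were lower and 1 higher (median -3.33), against 41.1% and 38.1% of all tested genes. Of these 9, 4 passed the filter through the wild-type-labelled libraries alone, Tbx5, Tbx18 and En1 among them, where 93.1% of all such genes were called lower. Tbx5, the forelimb factor, had 230, 146 and 195 counts against 0, 1 and 0, a ratio of 549 (interval 98.2 to 21734). Tbx18, a factor of somites and limb, had 1378 counts against 1 over the libraries (ratio 1326, interval 238 to 52397), and En1, a factor of the ventral limb and the hindbrain boundary, had 949 against 2 (ratio 456, interval 126 to 3775). Pitx1, the hindlimb factor, named after its values were seen, had 0 counts in every library. Of 8 tested head factors, 4 were lower and 4 higher (median 0.0051). Of the lower ones 3 passed the filter through the wild-type-labelled libraries alone, and of the higher ones 2 through the null-labelled libraries alone. Of all genes that passed in these ways, 93.1% were called lower and 78.6% higher, respectively. Alx1, a factor of the face, had 701 counts against 2 (ratio 337, interval 93.0 to 2790).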

How the data were processed

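Single-read RNA-seq of 6 libraries was deposited by the authors as raw counts per gene, made with featureCounts 1.6.2 on the mm10 build with Ensembl 83 genes, per the file headers. The submitters' processing notes also list FastQC 0.11.2, Trimmomatic 0.33, featureCounts 1.2.6 and Subread 1.6.2. The aligner's settings are not given in the sources used here. Counting used no strand, and reads that overlapped several genes or mapped to several places were not counted, per the command in the file headers, so genes that share exons or have near copies lose reads. Gene symbols were matched for 98.9% of the identifiers.

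From these counts, genes were filtered with filterByExpr, scaled by TMM and tested with edgeR 4.0.16 (quasi-likelihood, R 4.3.3), null-labelled against wild-type-labelled, over 15199 genes with Benjamini-Hochberg adjustment at 0.05. Every adjusted p is edgeR's unless another tool is named. CPM uses TMM-scaled totals, and RPKM divides CPM by the exonic length in the file headers' gene models. A gene without counts in a group was set against 3 counts over its 3 libraries. Shares were compared by a two-sided exact permutation test.

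The genes and lists were chosen with earlier results of these data known. The list does not hold every gene of these families, and genes outside it were counted by position only. Values of each library are given for listed genes with a mean of at least 1 CPM in a group, and of each further list or cluster the 3 genes with the largest change among those past the threshold and above a log2 CPM of 1. Some genes that this rule names are not reported here. Alternatives were DESeq2 1.42.0, voom in limma 3.58.1, DESeq2's size factors, other filters, a replicate block, a threshold of 0.01, other lengths and flanks, and each library left out in turn. Promoter sequences came from RefSeq (GRCm38.p6).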

Additional observations from a re-analysis of the deposited data

How the results depend on the processing

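The 9 HoxA genes tested were lower under every alternative in which they were tested, and 759 of 766 values of 64 single genes kept direction and side of the threshold. With the replicate number as a block 17 listed genes were lower and 6 higher, the same numbers as without it. Same-numbered libraries did not deviate together (correlations 0.012, -0.003 and 0.018), so the numbers are not taken as pairs. The single genes that did not (Hoxb3, Hoxc9, Hoxc10, Hoxd4 and Pbx4) stood under 3 CPM in every library. Counts of higher genes went from 2 to 1 in HoxB with DESeq2. In HoxC they went from 1 to 2 without a filter, to 0 with a filter of over 1 CPM, and to 0 to 2 with single libraries left out. For Meis and Pbx they went from 2 to 1 with DESeq2 and at a threshold of 0.01, and to 1 to 2 with single libraries left out. Hoxc9 had a log2 fold change of 0.0031 without null-labelled replicate 2 (adjusted p = 0.992 by edgeR), against -0.09, in a range of -0.15 to 0.0031 with single libraries left out. In and around the clusters 26 genes were lower and 17 higher, 12 and 6 within 200 kb, and 52 and 31 within 1000 kb. The highest paralogue number with at least the set level was 11 in wild-type-labelled HoxA at 3 CPM (13 at 1 CPM). In wild-type-labelled HoxC it was 10 at 0.5 CPM and 6 at 3 CPM (9 at 1 CPM), and in null-labelled HoxC 6 at 3 CPM and 9 to 10 with single libraries left out (10 at 1 CPM). The wild-type-labelled HoxA gene with the highest level was number 11 by unshared length. The change in share (percentage points) was -52.0 for HoxA, -55.4 by unshared length and -54.7 without length, and 5.44, 6.29 and 6.14 for HoxB. It was 40.6, 43.0 and 42.1 for HoxD and -8.61, -10.3 and -17.7 for paralogues 9 to 13, and for HoxC it was 5.94 and 6.47 without length. Genes under about 3 counts in a library (0.127 to 0.192 CPM) cannot be told from absent ones at this depth.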
